A study of Mus musculus with 24 samples.

Results

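Levels of 7 genes that encode messenger RNA decay factors were followed through activation of mouse CD4+ T cells: Zfp36, Zfp36l1 and Zfp36l2 of the ZFP36 family, Zc3h12a (Regnase-1) and Zc3h12d (Regnase-4), and Rc3h1 (Roquin-1) and Rc3h2 (Roquin-2). The genes were chosen by name, as the table entries whose Ensembl identifier maps to these symbols, and make up 7 of the 54446 genes counted. All 7 were among the 15325 genes with enough reads to be tested. The data are RNA sequencing counts per gene from splenic CD4+ T cells of C57BL6 mice, either WT or Aim2-/-, the latter deficient in the cytosolic DNA sensor AIM2. Cells of 3 mice per genotype (WT mice 1, 3 and 4, Aim2-/- mice 1, 2 and 4) were taken unstimulated (0 h) or after 3, 6 or 24 h in culture with anti-CD3 and anti-CD28 antibodies, which engage the T cell receptor and the costimulatory receptor CD28. The general methods of the study isolate such cells by immunomagnetic depletion of other cell types, which can leave some of these behind. This gave 8 groups of 3 libraries, 24 in all, and each mouse contributed a library at each of the 4 times. Every comparison with 0 h spans both the stimulation and the time in culture, which cannot be told apart.

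ZFP36 proteins are zinc finger proteins that bind AU-rich elements in the 3′ untranslated region of a transcript and recruit the CCR4-NOT deadenylase, which shortens the poly(A) tail. Regnases are ribonucleases that cut transcripts at stem-loops. Roquins bind stem-loops of the same general kind and also call in the deadenylase. In T cells, all 3 families are known to hold down cytokine and costimulatory transcripts, Regnase-1 and both Roquins are cleaved by the protease MALT1 after T cell receptor signalling, and several of the factors act on transcripts of the family itself.

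The totals ran from 19715161 to 21627018 counts per library, so 3 counts correspond to 0.129 to 0.155 counts-per-million units (CPM), and the members, at 31.7 CPM or more in every library, lay far above that level. Summed CD4+ T cell markers stood at 2760 to 4030 CPM over all libraries, against 7.74 to 15.6 CPM for CD8 T cell, 0.705 to 18.8 for NK cell, 2.98 to 38.6 for B cell, 7.14 to 389 for erythroid and 11.5 to 550 CPM for myeloid markers. The gene targeted by the knockout did not follow its labels in every mouse. In the mouse labelled WT 1, the Aim2 level was 21.5, 17.0, 11.5 and 5.57 CPM over the 4 times, in order, which lies close to or within the Aim2-/- ranges of 15.7 to 20.1, 14.6 to 15.1, 8.18 to 11.4 and 5.28 to 7.15 CPM. In the other WT mice Aim2 was at 67.5 to 75.0, 50.7 to 52.3, 32.5 to 33.0 and 34.0 to 38.7 CPM. The members' WT changes, shares and genotype differences, and the counts of the gene groups, are therefore given with all mice and, beside that, without the mouse labelled WT 1.

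Most of the members carry the kind of element that ZFP36 proteins read. The nonamer TTATTTATT, searched on the sense strand of the longest annotated 3′ untranslated region of each gene, occurred once in each of Zfp36, Zfp36l1, Zfp36l2, Rc3h1 and Rc3h2, and not in Zc3h12a or Zc3h12d. These 5 sites are given here in GRCm38 coordinates, 5′ to 3′ on the gene's strand, beside the first of 5 overlapping or neighbouring nonamers in the tumour necrosis factor transcript Tnf and the single nonamer in the interleukin 2 transcript Il2, both known targets of these families. Capitals mark the nonamer.
Zfp36, chr7:28376951-28376979 (-): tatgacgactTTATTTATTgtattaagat
Zfp36l1, chr12:80108167-80108195 (-): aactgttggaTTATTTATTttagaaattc
Zfp36l2, chr17:84184914-84184942 (-): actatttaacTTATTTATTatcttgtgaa
Rc3h1, chr1:160970043-160970071 (+): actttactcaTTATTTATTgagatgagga
Rc3h2, chr2:37373287-37373315 (-): caaagacattTTATTTATTttactctgta
Tnf, chr17:35199689-35199717 (-): tttgcacttaTTATTTATTatttatttat
Il2, chr3:37120898-37120926 (-): ttatctgaaaTTATTTATTatattgaatt
Of 21037 coding genes with an annotated 3′ untranslated region, 1611 (7.658%) held the nonamer. Longer regions hold it more often, and among genes whose region was within 20% of the member's own length the share was 4.01% for Zfp36 (774 bases), 10.1% for Zfp36l1 (1835 bases), 10.06% for Zfp36l2 (1822 bases), 27.53% for Rc3h1 (7181 bases) and 21.99% for Rc3h2 (5331 bases). The shorter core TATTTAT, which the nonamer contains, occurred 3 times in each ZFP36 paralog, 3 times in Rc3h2 and 2 times in Rc3h1. Of all these regions, 27.58% held it at least once. Among regions within 20% of the member's own length, the share was 19.38% for Zfp36, 38.27% for Zfp36l1 and 38.12% for Zfp36l2. For the Roquins it was 77.78% (Rc3h1) and 68.91% (Rc3h2), so that most regions of such length hold the core. A match shows only that the letters are present, since no binding was measured.

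The region just upstream of the start was searched in the RefSeq promoter windows (GRCm38.p6, 250 bases before the start, both strands). The search was for motifs of factors that T cell activation engages and, beside these, for the TATAAA box. Windows were found for 6 of the 7 members, all except Zfp36l2. The motifs were CRE (TGACGTCA), AP-1 (TGANTCA), EGR (GCGNGGGCG), NF-kB (GGGNNTTCC), the CArG box bound by serum response factor, and the TATAAA box. They were found 5 times, in the windows of Zfp36, Zfp36l1 and Rc3h1, and all 5 are shown, with the motif in capitals.
Zfp36, EGR, 105 bases before the start, chr7:28379315-28379343 (-): gagctacgccGCGGGGGCGcgtcccggaa
Zfp36, CArG box, 58 bases before the start, chr7:28379267-28379296 (-): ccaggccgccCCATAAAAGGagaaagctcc
Zfp36l1, AP-1, 129 bases before the start, chr12:80113126-80113152 (-): accgcatggcTGATTCAacctcagtgt
Zfp36l1, TATAAA, 29 bases before the start, chr12:80113027-80113052 (-): caccaaatctTATAAAttgggctttg
Rc3h1, AP-1, 133 bases before the start, chr1:160906268-160906294 (+): ttggggccggTGACTCAgagctttcct
Among 32851 such windows, 4.697% held the EGR motif, 1.467% a CArG box, 6.749% the AP-1 motif, 12.37% TATAAA, 4.977% the NF-kB motif and 1.546% the CRE. None of these letters occurred in the windows of Zc3h12a, Zc3h12d or Rc3h2. The Zfp36 sites lie inside the longer gene model that GENCODE gives for Zfp36.

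After stimulation of WT cells the 3 ZFP36 paralogs took different courses. Zfp36l2 fell early and stayed low, Zfp36 rose at 3 h, Zfp36l1 rose at 6 h, and all 3 were lower at 24 h than at 0 h. Changes were tested with edgeR's quasi-likelihood test over all tested genes with Benjamini-Hochberg adjustment, and a change was called at an adjusted p under 0.05. All fold changes are log2 values with their standard error (SE), and levels are means ± SD over 3 mice. The mice are separate animals, and the test measures the spread of the libraries within a group. It does not use the fact that the same mice were sampled at each time. A fit that compares each mouse with itself was run as an alternative.

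Zfp36l2, on chromosome 17 (84183931 to 84187947, minus strand, ENSMUSG00000045817), encodes the paralog best known for holding thymocytes and naive T cells in quiescence. Unstimulated WT mice 1, 3 and 4 had 652, 778 and 841 CPM, followed by 222, 223 and 233 CPM after 3 h, 192, 205 and 192 after 6 h, and 151, 139 and 139 after 24 h. Unstimulated Aim2-/- mice 1, 2 and 4 had 565, 654 and 598 CPM, followed by 256, 273 and 206 after 3 h, 219.5, 224 and 187 after 6 h, and 123, 166 and 138 after 24 h. Every unstimulated library lay above every stimulated library of either genotype, with no overlap. The WT change was -1.74 at 3 h (SE 0.12, adjusted p = 1.46e-09), which is 3.35-fold lower and among the lowest 1.04% of all tested genes. It reached -1.95 at 6 h (adjusted p = 9.24e-11) and -2.41 at 24 h (adjusted p = 4.93e-13), or 5.30-fold lower. The WT values were -1.83, -2.03 and -2.55, all called, without the mouse labelled WT 1. For Aim2-/- cells the change was -1.30, -1.53 and -2.09 (adjusted p = 8.85e-08, 2.83e-09 and 4.58e-12).

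Zfp36, on chromosome 7 (28376784 to 28380253, minus strand, ENSMUSG00000044786), encodes tristetraprolin, the founding member of the family. Its WT values before stimulation were 256, 275 and 323 CPM (the mice in the same order), then 321, 435 and 359.8 at 3 h, 254, 387 and 359.6 by 6 h, and 77.0, 78.9 and 84.6 by 24 h. Its Aim2-/- values before stimulation were 339, 303 and 338 CPM, then 267, 272 and 307 at 3 h, 241, 263 and 241 by 6 h, and 86.8, 80.8 and 82.0 by 24 h. WT and Aim2-/- libraries at 3 h did not overlap, and the 24 h libraries of both genotypes lay below all others. In WT cells Zfp36 rose by 0.39 at 3 h (SE 0.13, adjusted p = 0.0242), was 0.23 above 0 h at 6 h without passing the test (adjusted p = 0.144), and fell by 1.83 at 24 h (adjusted p = 8.46e-11), 3.55-fold lower than at 0 h. The Aim2-/- value at 3 h was -0.21 (adjusted p = 0.229), followed by falls of -0.40 at 6 h (adjusted p = 0.0134) and -1.97 at 24 h (adjusted p = 3.81e-11). The Aim2-/- call at 6 h was lost with library totals only (-0.28, adjusted p = 0.0575) and without mouse Aim2-/- 1 (adjusted p = 0.101) or 4 (adjusted p = 0.115). The WT rise at 3 h lost its call with marker scores of other cell types as terms in the fit (0.30, adjusted p = 0.153), without the whole mouse WT 3 (0.22, adjusted p = 0.34), without the 3 h library of mouse WT 3 (0.26, adjusted p = 0.169), without the 0 h library of the mouse labelled WT 1 (0.29, adjusted p = 0.137) or of mouse WT 3 (0.34, adjusted p = 0.0991). Without all libraries of the mouse labelled WT 1, the WT values were 0.41 (adjusted p = 0.0132), 0.32 (adjusted p = 0.0273) and -1.87 (adjusted p = 6.7e-10).

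Zfp36l1, on chromosome 12 (80107754 to 80113013, minus strand, ENSMUSG00000021127), encodes the paralog that acts with Zfp36l2 in lymphocyte development. WT mice started from 450.0, 395 and 447 CPM, reached 510.3, 539.8 and 424 CPM at 3 h and 578, 669 and 611 CPM at 6 h, and ended on 181, 178 and 184 CPM at 24 h. Aim2-/- mice started from 439, 442 and 413 CPM, had 374, 395 and 354 CPM at 3 h and 411, 444 and 388 CPM at 6 h, and ended on 188, 144 and 139.8 CPM at 24 h. The 6 h WT libraries were the highest of all 24, while the 6 h Aim2-/- libraries overlapped those of their own 0 h group. In WT cells the change was 0.19 at 3 h (adjusted p = 0.187), a rise of 0.52 at 6 h (SE 0.11, adjusted p = 0.000285) and a fall of -1.25 at 24 h (adjusted p = 1.21e-09). These were 0.19 (adjusted p = 0.369), 0.60 (adjusted p = 0.0019) and -1.22 (adjusted p = 7.49e-07) without the mouse labelled WT 1. In Aim2-/- cells the values at 3 and 6 h were -0.20 and -0.06 (adjusted p = 0.159 and 0.671), and the 24 h value was a fall of -1.45 (adjusted p = 1.66e-10).

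**Figure D1:**
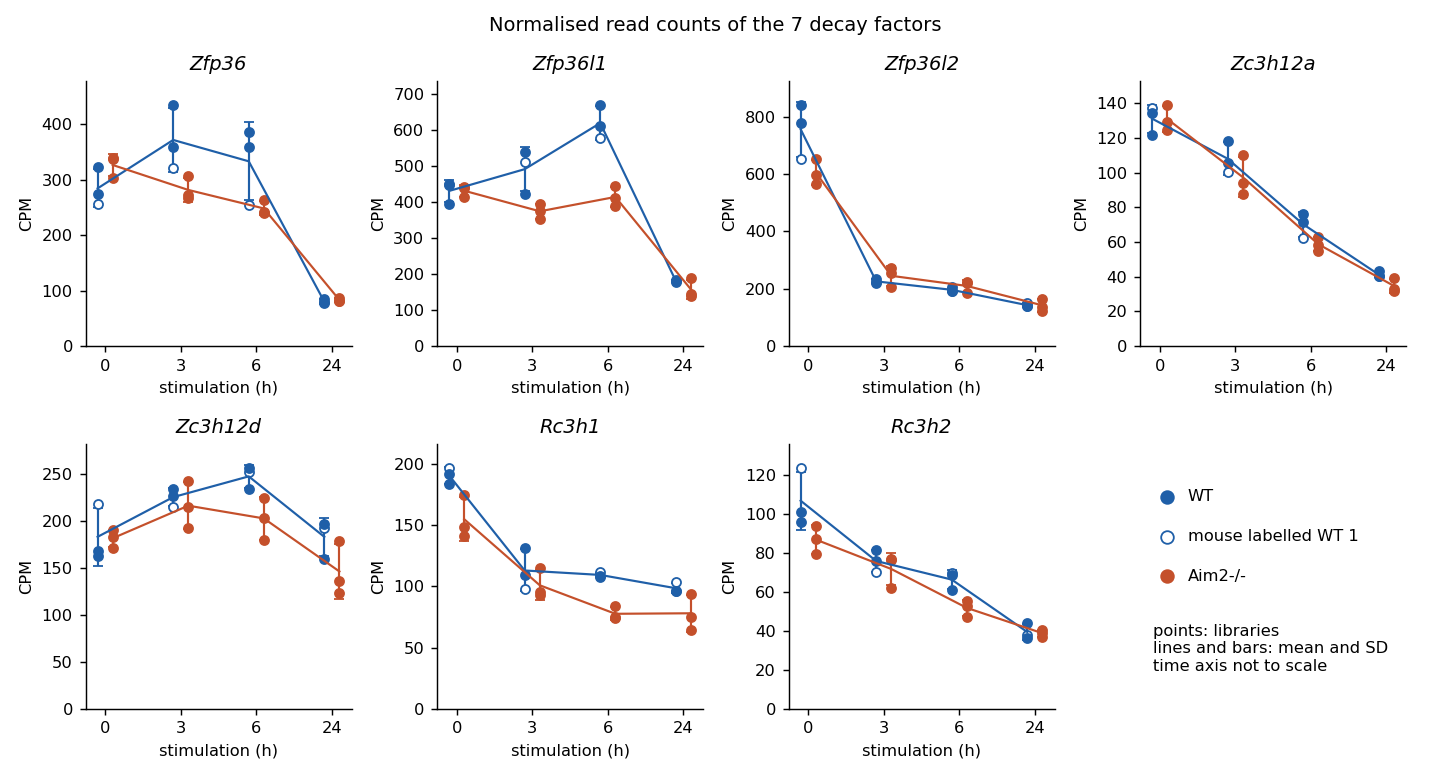
CPM of each of the 7 genes (y axes) at 0, 3, 6 and 24 h (x axes), with a point for each library and lines and bars for the mean and SD of 3 mice, for WT and Aim2-/- cells. Open circles are the mouse labelled WT 1, and the time axis is not to scale. Zfp36l2 drops from 652 to 841 CPM at 0 h to 222 to 233 CPM at 3 h in WT cells, while Zfp36l1 reaches 578 to 669 CPM at 6 h in WT cells against 388 to 444 CPM in Aim2-/- cells.

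Of the 2 Regnases, Zc3h12a fell at every time in both genotypes, while Zc3h12d rose at 6 h in WT cells and fell only at 24 h in Aim2-/- cells. Zc3h12a, on chromosome 4 (125118423 to 125127840, minus strand, ENSMUSG00000042677), encodes Regnase-1, the ribonuclease whose loss in T cells leads to their spontaneous activation. From 137, 122 and 134 CPM in unstimulated WT mice 1, 3 and 4 it went to 100.2, 106 and 119 CPM by 3 h, 62.6, 71.7 and 76.4 by 6 h, and 40.2, 40.4 and 43.1 by 24 h. From 139, 129.5 and 125 CPM in unstimulated Aim2-/- mice 1, 2 and 4 it went to 94.2, 110.4 and 87.8 CPM by 3 h, 58.0, 63.1 and 55.1 by 6 h, and 31.7, 39.4 and 33.0 by 24 h. Within each genotype the groups of the 4 times did not overlap and followed the order of time. The WT changes were -0.28 at 3 h (SE 0.10, adjusted p = 0.0348), -0.90 at 6 h (adjusted p = 1.84e-07) and -1.67 at 24 h (adjusted p = 6.93e-12), the last being 3.18-fold. The Aim2-/- changes were -0.43, -1.16 and -1.92 (adjusted p = 0.00241, 1.19e-08 and 1.75e-12). The WT call at 3 h was lost without the mouse labelled WT 1 (-0.20, adjusted p = 0.288) and with library totals in place of normalization factors (-0.17, adjusted p = 0.165), and was lost under 10 alternatives in all. The 6 and 24 h falls stayed called without the mouse labelled WT 1 (-0.79 and -1.62).

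Zc3h12d, on chromosome 10 (7832470 to 7870396, plus strand, ENSMUSG00000039981), encodes Regnase-4, also named TFL, a less studied relative of Regnase-1 that is abundant in lymphocytes. The unstimulated WT mice had 218, 168 and 163 CPM, and the later values were 215, 226 and 234 CPM (3 h), 252, 256 and 233 CPM (6 h) and 192, 197 and 159.6 CPM (24 h). The unstimulated Aim2-/- mice had 189.6, 183 and 171 CPM, and the later values were 192, 242 and 214 CPM (3 h), 179.6, 225 and 203 CPM (6 h) and 123, 179 and 136 CPM (24 h). The mouse labelled WT 1 had the highest 0 h value of all 6 mice. In WT cells the changes were 0.30 at 3 h (adjusted p = 0.0888), a rise of 0.43 at 6 h (SE 0.13, adjusted p = 0.0086) and -0.0002 at 24 h (SE 0.13, adjusted p = 0.999). The 6 h call was lost without the 0 h library of mouse WT 3 (0.34, adjusted p = 0.0802) or of mouse WT 4 (0.33, adjusted p = 0.0898), without either whole mouse (0.31 and 0.37, adjusted p = 0.191 and 0.0907), and with marker scores as terms (0.29, adjusted p = 0.135). With those terms the WT value at 24 h was -0.42 (adjusted p = 0.186) and the Aim2-/- value -0.73 (adjusted p = 0.0212). Without the mouse labelled WT 1 the WT values were 0.48 (adjusted p = 0.0365), 0.57 (adjusted p = 0.00708) and 0.11 (adjusted p = 0.567). In Aim2-/- cells the values were 0.25 at 3 h and 0.16 at 6 h (adjusted p = 0.163 and 0.33) and a fall of -0.31 at 24 h (adjusted p = 0.0401), which was lost under 7 alternatives, among them without the 24 h library of mouse Aim2-/- 1 (-0.20, adjusted p = 0.199) and without that whole mouse (-0.18, adjusted p = 0.299). With the mouse as a block, a fit that compares each mouse with itself, the WT value at 3 h was called (0.31, adjusted p = 0.0172).

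Both Roquins fell after stimulation, Rc3h1 mainly within the first 6 h and Rc3h2 through to 24 h. Rc3h1, on chromosome 1 (160906418 to 160974978, plus strand, ENSMUSG00000040423), encodes Roquin-1, the protein altered in the autoimmune sanroque mouse. WT mice 1, 3 and 4 had 197, 183 and 192 CPM before stimulation, 98.1, 109 and 132 after 3 h, 112, 108 and 109 after 6 h, and 103, 96.0 and 96.2 after 24 h. Aim2-/- mice 1, 2 and 4 had 148, 175 and 141 CPM before stimulation, 95.1, 115 and 92.8 after 3 h, 73.9, 83.7 and 75.1 after 6 h, and 64.5, 94.2 and 75.4 after 24 h. Apart from 3 h, the WT and Aim2-/- libraries of a time did not overlap, with the Aim2-/- libraries lower. The WT changes from 0 h were -0.75, -0.80 and -0.95 at 3, 6 and 24 h (adjusted p = 5.68e-05, 1.1e-05 and 4.99e-07), or -0.64, -0.79 and -0.97, all called, without the mouse labelled WT 1. The Aim2-/- changes were -0.62, -0.997 and -0.99 (adjusted p = 0.000557, 9.78e-07 and 3.47e-07).

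Rc3h2, on chromosome 2 (37370069 to 37422903, minus strand, ENSMUSG00000075376), encodes Roquin-2, which overlaps with Roquin-1 in function. WT mice went from 124, 95.8 and 101 CPM unstimulated to 70.2, 75.9 and 81.7 CPM by 3 h, 69.5, 61.0 and 68.7 by 6 h, and 38.2, 36.1 and 44.0 by 24 h. Aim2-/- mice went from 87.1, 94.2 and 79.7 CPM unstimulated to 76.8, 76.4 and 62.2 CPM by 3 h, 52.6, 55.6 and 47.4 by 6 h, and 40.6, 38.8 and 37.0 by 24 h. Within each genotype the groups of the 4 times followed each other downward without overlap. The WT changes were -0.49, -0.69 and -1.44 (adjusted p = 0.00122, 1.72e-05 and 2.07e-10), which without the mouse labelled WT 1 were -0.32 (adjusted p = 0.0751), -0.60 (adjusted p = 0.000832) and -1.30 (adjusted p = 1.08e-07). The Aim2-/- changes were -0.28 at 3 h (adjusted p = 0.0584), which was called with the mouse as a block (adjusted p = 0.0115), -0.75 at 6 h (adjusted p = 7.99e-06) and -1.16 at 24 h (adjusted p = 6.32e-09).

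Counted together, 1 member was higher and 4 were lower than at 0 h in WT cells at 3 h, where 16.2% of all tested genes were called higher and 16.4% lower. At 6 h, 2 members were higher and 4 lower (26.4% and 24.8% of all genes), and at 24 h none was higher and 6 were lower (36.6% and 34.8%). In Aim2-/- cells none was called higher at any of the 3 times, while 3, 5 and 7 members were lower at 3, 6 and 24 h, against 14.6%, 22.7% and 33.5% of all genes. The members' median change in WT cells was -0.28, -0.69 and -1.44 at the 3 times, beside all-gene medians of 0.02, 0.02 and -0.01. Within a genotype, all 3 comparisons share the same 0 h libraries. Scaled to library totals only, the all-gene WT median at 3 h was 0.122 and the members split into 3 higher and 3 lower. Of all genes, 3357 were then called higher and 1815 lower. Summed myeloid markers went from 53.1 to 69.5 CPM at 0 h to 11.5 to 23.2 CPM at 24 h in WT libraries, and from 191 to 550 CPM to 30.5 to 211 CPM in Aim2-/- libraries. With marker scores as terms in the fit, 6 of the 7 members stayed called lower at 24 h in WT cells and all 7 in Aim2-/- cells. Without the mouse labelled WT 1, the WT counts were 2 higher and 2 lower at 3 h, 3 higher and 4 lower at 6 h, and 6 lower at 24 h. At 3 h 10.9% of all genes were then called higher and 11.6% lower, at 6 h 43.7% in either direction, and at 24 h 33.2% and 30.9%.

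**Figure D2:**
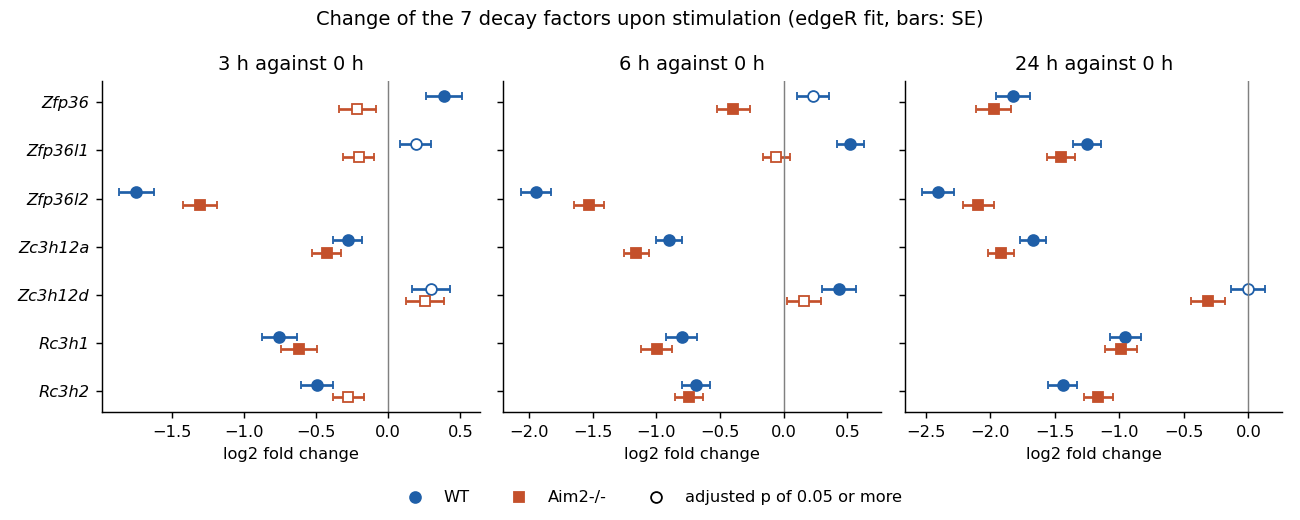
Log2 change from 0 h with its SE (x axes) for the 7 genes (y axis) at 3, 6 and 24 h (panels) in WT and Aim2-/- cells, with filled marks for an adjusted p under 0.05. At 3 h Zfp36l2 stands apart at -1.74 in WT cells, and at 24 h Zc3h12d is the only member whose WT value did not pass the test.

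Steps between neighbouring times placed the changes more narrowly. From 3 to 6 h in WT cells, Zfp36l1 rose by 0.33 (SE 0.11, adjusted p = 0.024) and Zc3h12a fell by 0.62 (adjusted p = 0.000149), and these 2 of 7 compare with 25.7% of all genes called in either direction. The Zfp36l1 step was 0.24 (adjusted p = 0.157) without the 3 h library of mouse WT 4 and 0.28 (adjusted p = 0.118) without the 6 h library of mouse WT 3. It was 0.41 (adjusted p = 0.0482) without the mouse labelled WT 1, and the Zc3h12a step was called there too (adjusted p = 0.00351). In Aim2-/- cells the same step lowered Zc3h12a (-0.73), Rc3h2 (-0.47) and Rc3h1 (-0.38, adjusted p = 0.0287), against 9.89% of all genes lower. The Rc3h1 step lost its call under 7 alternatives, among them without the 3 h library of mouse Aim2-/- 2 (-0.27, adjusted p = 0.177), without the 6 h library of mouse Aim2-/- 1 (-0.34, adjusted p = 0.0898) or 4 (-0.36, adjusted p = 0.104), and in a fit of only the libraries compared (-0.41, adjusted p = 0.0751). From 6 to 24 h 6 of 7 members fell in WT cells (28% of all genes) and 6 of 7 in Aim2-/- cells (27%), led by Zfp36 (-2.06 and -1.58) and Zfp36l1 (-1.77 and -1.40). Rc3h1 was the exception in both, at -0.15 in WT cells (adjusted p = 0.295) and 0.01 in Aim2-/- cells (adjusted p = 0.962).

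Divided by the length of the merged exons, the levels put the members in order and showed the order turning over. In unstimulated WT cells Zfp36l2 led with 214 CPM per kb, then Zfp36l1 with 144, Zfp36 with 82.0, Zc3h12a with 45.5, Zc3h12d with 44.7, Rc3h1 with 16.9 and Rc3h2 with 5.45. Of these neighbours, only the Regnases overlapped in their ranges over mice. At 3 h Zfp36l1 led with 164 CPM per kb, followed by Zfp36 with 107 and Zfp36l2 with 64.0. At 6 h Zfp36l1 stood at 207 and Zfp36 at 96.1 CPM per kb, and Zc3h12d (60.4) and Zfp36l2 (55.6) overlapped in their ranges. At 24 h Zfp36l1 still led with 60.6 CPM per kb, Zc3h12d (44.7) and Zfp36l2 (40.4) overlapped, and Zfp36 was at 23.1, with Rc3h2 last in every group. The merged exons of Rc3h2 span 19624 bases and its longest transcript 8948. By the longest transcript its level at 0 h in WT cells was 11.95 CPM per kb, still last. The order at 0 h was the same without the mouse labelled WT 1, from 229 CPM per kb for Zfp36l2 to 5.02 for Rc3h2, but the ranges of the Regnases (44.4 and 40.4) over the other 2 mice lay apart.

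The ZFP36 family as a whole, summed per kb, went from 441 ± 36.7 CPM per kb at 0 h to 124 ± 2.32 at 24 h in WT cells. Within that sum Zfp36l2 gave way to Zfp36l1. Over the 4 times in WT cells Zfp36l2 made up 48.6 ± 3.1, 19.2 ± 2.1, 15.6 ± 1.2 and 32.6 ± 1.3% of the family, and Zfp36l1 32.8, 48.9, 57.8 and 48.8%. The share of Zfp36 was highest at 3 h, at 31.9% against 18.6% at 0 h. Over the 2 WT mice other than the mouse labelled WT 1, the Zfp36l2 share was 50.3, 19.2, 14.9 and 31.9%, and the family sum 456 CPM per kb at 0 h and 123 at 24 h. The Zfp36l2 share in Aim2-/- cells went from 41.8 ± 2.3% to 25.1 ± 2.7, 22 ± 1 and 34.6 ± 5.7%. The genotypes' Zfp36l2 shares did not overlap at 0, 3 or 6 h, with Aim2-/- minus WT differences of -6.76, 5.93 and 6.46 percentage points. Of 20 such share comparisons, 6 reached the smallest p that 3 against 3 mice allow (exact two-sided permutation test, p = 0.1), and the lowest adjusted value was 0.333.

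**Figure D3:**
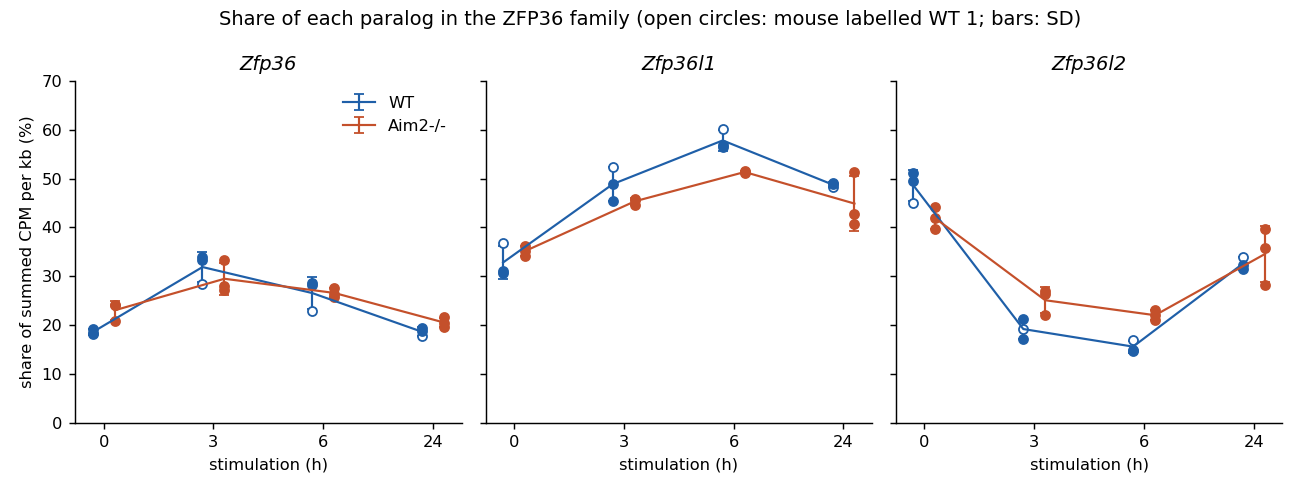
Share of Zfp36, Zfp36l1 and Zfp36l2 in their summed CPM per kb (y axis, percent) at 0, 3, 6 and 24 h (x axis), with a point per mouse (open for the mouse labelled WT 1) and lines and bars for the mean and SD, for WT and Aim2-/- cells. Zfp36l2 makes up 48.6% in WT cells at 0 h and 15.6% at 6 h, when Zfp36l1 makes up 57.8%.

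The Regnase and Roquin pairs behaved differently from each other. The summed Regnase level in WT cells was 90.2, 92.5, 84.7 and 59 CPM per kb at the 4 times, while the Zc3h12a share of it went from 50.7 ± 3.4% at 0 h to 40.5, 28.8 and 24.4 ± 2.9%. Aim2-/- cells showed nearly the same shares, at 50.6, 39.1, 29.3 and 25.4%. The summed Roquin level in WT cells was 22.3, 13.9, 13.1 and 10.7 CPM per kb, with Rc3h1 at 75.6, 71.9, 74.1 and 81.2% of it. The Zc3h12a share was 52.4, 40.8, 30.1 and 25.1% and the Rc3h1 share 76.8, 72.5, 74.4 and 80.7% without the mouse labelled WT 1. The Roquin shares depend on the length used for Rc3h2, and with the longest transcript Rc3h1 made up 59.3% at 0 h and 67% at 24 h in WT cells.

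The comparison of genotypes asked whether the lack of Aim2 went with other levels of these factors. At 6 h 4 members were lower in Aim2-/- than in WT cells, where 7.01% of all tested genes were called lower and 8.78% higher, and none was higher. Zfp36l1 was at 414 ± 28.2 against 619 ± 46.2 CPM (n = 3 each), a difference of -0.58 (SE 0.11, adjusted p = 0.00484). Rc3h1 was at 77.6 ± 5.33 against 109 ± 1.90 CPM (-0.50, SE 0.12, adjusted p = 0.016), Zfp36 at 248 ± 12.6 against 333 ± 70.3 CPM (-0.42, SE 0.13, adjusted p = 0.0334) and Rc3h2 at 51.8 ± 4.15 against 66.4 ± 4.72 CPM (-0.36, SE 0.11, adjusted p = 0.0345). The libraries of Zfp36l1, Rc3h1, Rc3h2 and Zc3h12d did not overlap between genotypes. For Zfp36 the mouse labelled WT 1, at 254 CPM, lay within the Aim2-/- range of 241 to 263 CPM. The share of all genes without such overlap is not reported here, at this or any other time. Zc3h12a (-0.26, adjusted p = 0.0796), Zc3h12d (-0.29, adjusted p = 0.128) and Zfp36l2 (0.10, adjusted p = 0.59) did not pass the test.

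Without the mouse labelled WT 1, whose Aim2 level was that of the knockout, the 6 h differences were -0.63 for Zfp36l1 (adjusted p = 0.0094), -0.59 for Zfp36 (adjusted p = 0.00406), -0.48 for Rc3h1 (adjusted p = 0.037) and -0.33 for Rc3h2 (adjusted p = 0.0711), so that 3 members were called against 11.4% of all genes in either direction. Aim2 itself differed by -1.34 at 6 h with all mice (adjusted p = 0.0885) and by -1.70 without that mouse (adjusted p = 1.24e-05). Of the 4 calls, that of Zfp36l1 held under all 39 alternatives run for it. The Zfp36 call was lost without the 6 h library of mouse Aim2-/- 1 (adjusted p = 0.138) or 4 (adjusted p = 0.0863), or of mouse WT 3 (-0.31, adjusted p = 0.153) or 4 (-0.37, adjusted p = 0.113). That of Rc3h1 was lost under 6 alternatives, among them without the 6 h library of mouse Aim2-/- 1 (-0.46, adjusted p = 0.1), and that of Rc3h2 under 13 alternatives, among them the removal of any 6 h library of mouse Aim2-/- 1 or 4 or of any WT mouse (adjusted p up to 0.123). Rc3h1 lies 12.376 Mb from Aim2, on the same chromosome.

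Genes of other cell types differed between the same groups. The 8 myeloid markers, all counted, summed to 91.7 to 299 CPM in Aim2-/- and 22.5 to 52.4 CPM in WT libraries at 6 h, the 6 B cell markers to 11.3 to 38.6 against 3.55 to 7.01 CPM, and the 5 erythroid markers to 25.3 to 389 against 12.2 to 49.9 CPM. The CD4+ T cell markers summed to 3670 to 3810 CPM in Aim2-/- and 3430 to 3760 CPM in WT libraries at 6 h. With marker scores as terms in the fit, the Zfp36l1 difference at 6 h stayed called, while Zfp36 (-0.41, adjusted p = 0.238), Rc3h1 (-0.27, adjusted p = 0.274) and Rc3h2 (-0.27, adjusted p = 0.293) were not. In bulk samples, fewer cells of a type and less RNA per cell cannot be told apart.

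**Figure D4:**
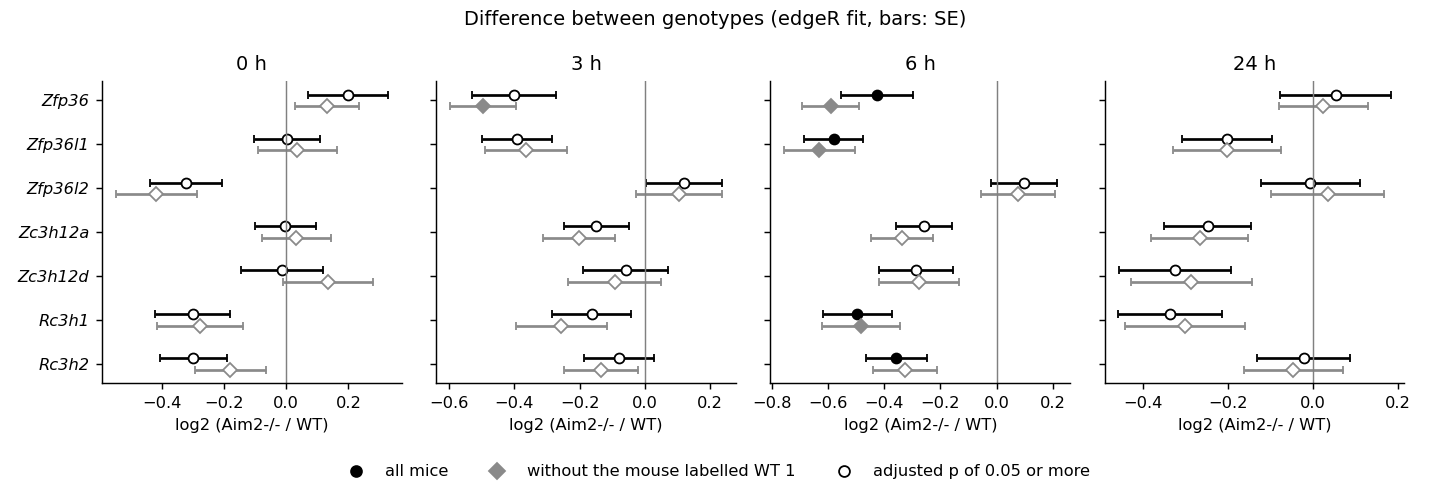
Difference between genotypes (Aim2-/- minus WT, log2, with its SE, x axes) for the 7 genes (y axis) at 0, 3, 6 and 24 h (panels), with all mice and without the mouse labelled WT 1, filled where the adjusted p was under 0.05. At 6 h Zfp36l1 lies at -0.58 with all mice and -0.63 without that mouse, and Zfp36l2 is at 0.10 with all mice.

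At the other times edgeR called no member different between genotypes, where 5.23% of all genes were called at 0 h, 0.294% at 3 h and 0.666% at 24 h. At an unadjusted p under 0.05 the counts were 3, 2 and 3 members, beside 3649, 2350 and 3134 of all 15325 genes. DESeq2 called 0, 1 and 0 members, and limma-voom called none. At 0 h the values nearest the threshold were those of Rc3h2 (-0.30, adjusted p = 0.0996), Zfp36l2 (-0.32, adjusted p = 0.0998) and Rc3h1 (-0.30, adjusted p = 0.136), and without the mouse labelled WT 1 they were -0.18, -0.42 and -0.28 (adjusted p = 0.37, 0.0673 and 0.247). At 3 h Zfp36 was at 282 ± 21.7 against 372 ± 57.7 CPM (-0.40, adjusted p = 0.172) and Zfp36l1 at 374 ± 20.6 against 491 ± 60.5 CPM (-0.39, adjusted p = 0.108), both with no overlap between genotypes. Without the mouse labelled WT 1 the Zfp36 difference at 3 h was called (-0.50, adjusted p = 0.0164), 1 member against 2.71% of all genes, and that of Zfp36l1 was not (-0.36, adjusted p = 0.122). At 24 h the Rc3h1 libraries lay apart (-0.34, adjusted p = 0.144), as did those of Zc3h12a (-0.25, adjusted p = 0.184), and without the mouse labelled WT 1 the values were -0.30 (adjusted p = 0.266) and -0.27 (adjusted p = 0.229). The myeloid markers summed to 191 to 550, 113 to 351 and 30.5 to 211 CPM in Aim2-/- libraries at these 3 times and to 53.1 to 69.5, 33.9 to 54.9 and 11.5 to 23.2 CPM in WT libraries. With marker scores as terms, the Rc3h1 difference was -0.06 at 0 h (adjusted p = 0.821) and -0.10 at 24 h (adjusted p = 1).

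Whether the response itself differed was tested as the Aim2-/- change minus the WT change. No member was called at 3, 6 or 24 h by edgeR, which called 0%, 0.0261% and 0% of all genes. At an unadjusted p under 0.05 there were 3, 3 and 0 members, beside 653, 2019 and 1825 of all 15325 genes. DESeq2 called 0, 2 and 0 members, and limma-voom none. The values at 6 h were -0.62 for Zfp36 (SE 0.18, adjusted p = 0.135) and -0.58 for Zfp36l1 (SE 0.15, adjusted p = 0.0941). With the mouse as a block, both were called (-0.61, adjusted p = 0.0179, and -0.58, adjusted p = 0.0201), and without the mouse labelled WT 1 neither was (-0.72, adjusted p = 0.0722, and -0.67, adjusted p = 0.161). From mouse to mouse, the 0 to 6 h change of Zfp36l1 was 0.36 to 0.76 in the WT mice and -0.10 to 0.01 in the Aim2-/- mice. With the 4 libraries of each mouse summed, no member was called (0.0117% of all genes). In that fit 2 members had an unadjusted p under 0.05, beside 4004 of 17163 genes, and DESeq2 called 2 members. The values nearest the threshold were -0.31 for Zfp36l1 (adjusted p = 0.127) and -0.30 for Rc3h1 (adjusted p = 0.143).

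The transcripts that these factors are known to act on, and the machinery they recruit, were counted in the same fits. Of 20 known targets of the ZFP36 family, 10 rose and none fell at 3 h in WT cells, with a median of 0.99, where 16.2% of all genes were called higher and 16.4% lower. At 24 h 8 rose and 8 fell, with a median of -0.14, against 36.6% and 34.8% of all genes. Heptamers (the core TATTTAT) occurred in 17 of these 20 and nonamers in 9, against 27.58% and 7.658% of all coding genes. Tnf went from 31.4 CPM at 0 h to 216, 369 and 156 CPM at 3, 6 and 24 h in WT cells, a change of 2.78 at 3 h. Il3, encoding interleukin 3, had no count in WT cells at 0 h and reached 2.20 CPM at 3 h and 16.4 CPM at 24 h, at least 14.5-fold and 108-fold higher against a floor of 3 counts per library. Fos, encoding a subunit of AP-1, went the other way, from 84.5 to 7.64 CPM at 24 h (-3.47).

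Known targets of Regnase-1 or the Roquins, of which 19 of 20 were tested, included 9 that rose and 3 that fell at 3 h in WT cells (median 0.54) and 9 and 8 at 24 h (median 0.20). Of all genes, 16.2% were called higher and 16.4% lower at 3 h, and 36.6% and 34.8% at 24 h. Zc3h12a is itself on that list. Il2 was at 1.59, 18.3, 66.0 and 145 CPM at the 4 times, rises of 3.52 at 3 h and 6.51 at 24 h. Ctla4, encoding an inhibitory receptor, fell by 0.84 at 3 h, and Tnfrsf1b, encoding a tumour necrosis factor receptor, fell by 2.64 at 24 h. Heptamers occurred in 9 and nonamers in 4 of the 20, some of which are also on the list of ZFP36 targets.

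The CCR4-NOT deadenylase and its adaptors were counted together with Pan2, Pan3 and Parn, which encode other deadenylases. Of these 19 genes, 1 rose and 7 fell at 3 h in WT cells (median -0.16), and 6 rose and 12 fell at 24 h (median -0.79). The largest falls at both times were those of Tob1, an adaptor that restrains T cell proliferation, at -1.15 and -3.17 (86.9 CPM at 0 h and 9.66 at 24 h), and the largest rise at 24 h was that of the subunit Cnot9 (1.73). Of 18 genes of decapping and 5′ to 3′ decay, 5 rose and 4 fell at 3 h (median -0.08) and 8 rose and 6 fell at 24 h (median 0.18), between Pnrc1 at -2.97 and Lsm2 at 2.54. The 11 other AU-rich element binding proteins tested included 7 that rose at 24 h, led by Ybx1 (2.18), and 3 that fell (median 0.61). Of 16 regulators and partners of the members, 2 rose and 4 fell at 3 h, and 4 rose and 9 fell at 24 h (median -0.40). Malt1, encoding the protease that cleaves Regnase-1 and the Roquins, went from 199 to 316 CPM at 3 h (0.67), 536 at 6 h and 221 at 24 h. Arid5a, whose protein protects Regnase-1 targets, fell by 1.95 at 24 h. Of the other CCCH paralogs, 2 of 3 were tested, and Zc3h12c was at 4.76 CPM at 0 h and 1.26 CPM at 24 h (-1.91). Beside each of these counts, 16.2% of all genes were called higher and 16.4% lower at 3 h, and 36.6% and 34.8% at 24 h.

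Fewer genes of these groups were called at 3 h without the mouse labelled WT 1. At that time 8 of the ZFP36 targets then rose and 1 fell, 8 and 2 of the Regnase-1 or Roquin targets, none and 6 of the deadenylase genes, 1 and 4 of the decapping genes, and 2 and 2 of the regulators, beside 10.9% and 11.6% of all genes. At 24 h 7 and 7, 9 and 8, 6 and 11, 7 and 6, and 5 and 9 genes of these groups rose and fell, and 6 and 3 of the other AU-rich element binding proteins. The calls of the genes named above at 3 and 24 h held without that mouse, with Ctla4 nearest the threshold (adjusted p = 0.0268). Not every gene with the largest change of its group was named there. With all mice, Tnks1bp1 had the largest called rise of the deadenylase genes at 3 h (0.48, adjusted p = 0.00239). Pcbp1 had that of the other AU-rich element binding proteins (0.49, adjusted p = 0.00475). Without the mouse labelled WT 1, no gene of either group was called higher at 3 h.

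**Figure D5:**
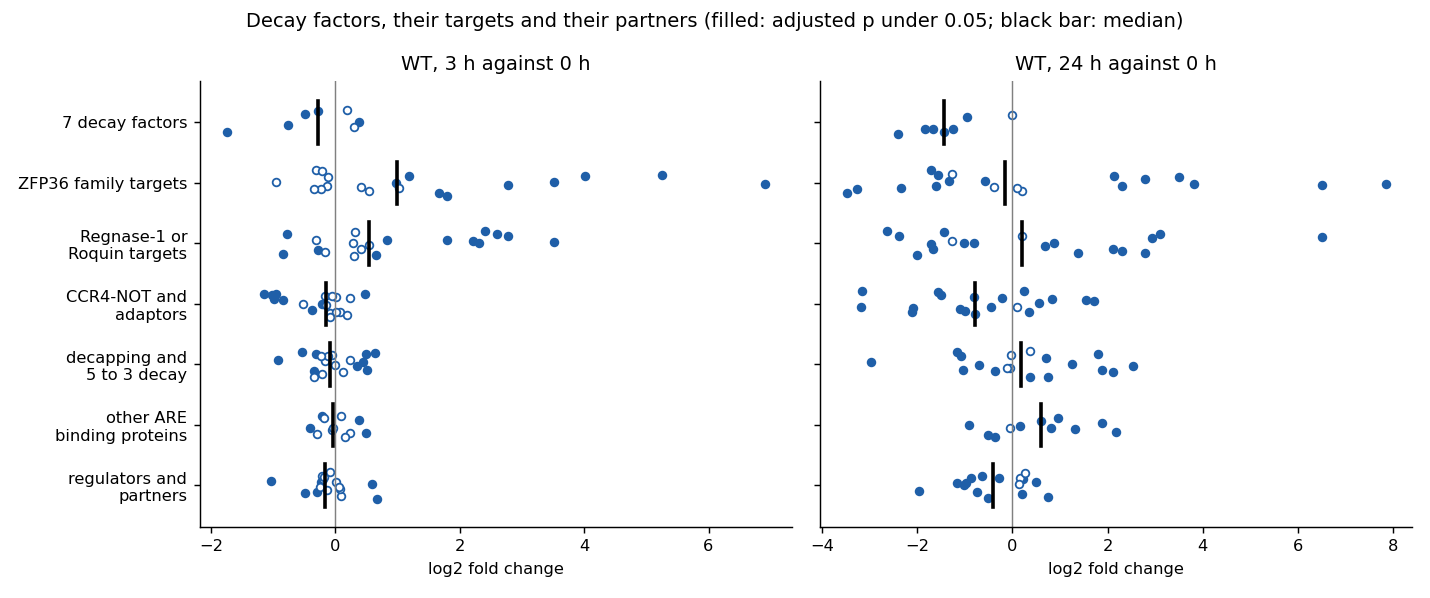
Log2 change from 0 h in WT cells (x axes) for the 7 genes and for 6 groups of related genes (y axis) at 3 and 24 h (panels), with a point per tested gene, filled where the adjusted p was under 0.05, and a bar at the median; Il3 counts toward its median and is not drawn, since it had no count at 0 h. At 3 h the median of the known ZFP36 targets is 0.99 and that of the members -0.28.

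Between genotypes at 6 h, 5 of the 20 known ZFP36 targets were higher and 3 lower in Aim2-/- cells, against 8.78% and 7.01% of all genes. Tnf was lower (238 against 369 CPM, -0.63, adjusted p = 0.0258), while Il6 (2.16, adjusted p = 0.0183), Ptgs2 (2.09, adjusted p = 0.0403) and Cxcl2 (1.30, adjusted p = 0.0409), which myeloid cells also express, were higher. The part of the myeloid marker difference in these values was not tested. The 3 named as higher were picked out of the 5 after their values were seen. Ifng, encoding the T cell cytokine interferon gamma, was at 164 ± 64.7 CPM in Aim2-/- and 94.3 ± 29.1 CPM in WT cells at 6 h. Il2 went the other way, at 49.5 ± 8.49 against 66.0 ± 13.7 CPM. The ranges of both overlapped between genotypes, and their tests are not reported here. Of the Regnase-1 or Roquin targets 4 were higher and 6 lower, among them Tnfrsf4 (0.62, adjusted p = 0.0159) and Rel (-0.55, adjusted p = 0.00484). In the deadenylase, decapping, other AU-rich element binding and regulator groups, 4 of 19, 5 of 18, 3 of 11 and 3 of 16 genes were lower and none was higher, including the deadenylase scaffold Cnot1 (-0.64, adjusted p = 0.0454), the exonuclease Xrn1 (-0.40, adjusted p = 0.0407) and Malt1 (-0.59, adjusted p = 0.022). Without the mouse labelled WT 1, 7.83% of all genes were higher and 3.62% lower. The ZFP36 targets then split into 2 higher and 2 lower and the Regnase-1 or Roquin targets into 4 and 4, while 3, 2, 3 and 3 genes of the other groups were lower, in the same order. Calls were lost for Ptgs2 (adjusted p = 0.0716), Cxcl2 (adjusted p = 0.0605), Cnot1 (adjusted p = 0.149) and Xrn1 (adjusted p = 0.0602), and held for Tnf (-0.65), Il6 (1.87), Tnfrsf4 (0.71), Rel (-0.48) and Malt1 (-0.51).

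Over the 24 libraries, the genes whose log2 CPM followed each member most closely were listed as a description, with Pearson's r among 8673 genes of at least 10 CPM on average; the libraries share mice, times and depth. Zfp36l2 was followed most closely by Spata13 and Eif2ak3 (both 0.988), Zfp36 by Sik3 (0.974) and the immediate early gene Nr4a2 (0.973), and Zfp36l1 by Rnf19a (0.964) and Klc2 (0.961). Zc3h12a was closest to Zeb1, which encodes a transcriptional repressor of Il2 (0.99), Zc3h12d to Ahi1 (0.902), Rc3h1 to Lmtk2 (0.975) and Rc3h2 to Taok1 (0.986). The closest neighbour of Zc3h12d thus had a lower r than those of the other members. Among the members, Zc3h12a and Rc3h2 (0.956) and Zfp36 and Zfp36l1 (0.948) ran together most closely, and Zfp36l2 and Zc3h12d did not (-0.004).

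Some annotated genes overlap the members, and reads in the shared parts cannot be told apart without strand, whose use in the counting is not stated in the sources used here. An antisense or other-strand gene overlaps each ZFP36 paralog, Zc3h12d contains 2 small RNA genes and Rc3h2 contains 1, and 3 provisional transcripts lie within Rc3h1 on its strand. Zc3h12a overlaps none.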

How the data were processed

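RNA of the 24 libraries had been extracted with RNeasy columns and made into TruSeq stranded mRNA libraries. The raw read counts per Ensembl gene were deposited by the authors after alignment to GRCm38 with STAR, with no pooling of replicates; the STAR version is not given in the sources used here. DESeq2 and edgeR are also named in the submitters' processing notes. Per the labels, groups are genotype by time, and all value columns could be matched to a sample. Members, gene lists and tests were chosen with earlier results of these data known.

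Genes with enough reads by filterByExpr (minimum count 10) were kept, 15325 genes holding 99.93% of the counts. TMM factors (0.928 to 1.087), edgeR 4.0.16 (R 4.3.3), a mean per group over all 24 libraries and the quasi-likelihood F test with Benjamini-Hochberg adjustment gave each comparison. The biological coefficient of variation was 18.6%. Totals ran from 19715161 to 21627018 counts per library. In some groups the members' spread between mice was small, and counting error is not small beside it. For Rc3h1 in WT cells at 6 h, the level was 109 ± 1.90 CPM from 2217 to 2515 counts per library. Genotype was also tested on counts summed per mouse. Positions and lengths came from GENCODE M21, and promoter windows from RefSeq.

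Libraries of the same mouse deviated together from their group means (36 pairs, r 0.139 to 0.567, against -0.432 to 0.0742 in 72 pairs of different mice), so the mouse pairs the times. Alternatives were DESeq2 1.42.0, limma-voom (limma 3.58.1), library totals, no filter, a minimum mean of 1 CPM, separate fits, the mouse as a block, marker scores as terms, other lengths, and leaving out each library and each mouse. The fits were tested on simulated data. Genes named from the lists come from those with the largest called rise and fall in WT cells at 3 and 24 h, not all of which are named. Others named were picked after their values were seen.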

Additional observations from a re-analysis of the deposited data

Results flagged for a closer look

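From 0 to 3 h, every WT mouse differed in one direction for Zfp36 and every Aim2-/- mouse in the opposite direction. The result was flagged for this difference, so the test below uses the same values. The share of all genes that split in this way is not reported here. In that test, 653 of 15325 genes had an unadjusted p under 0.05 and none was called. The log2 CPM at 3 h minus that at 0 h was 0.33, 0.66 and 0.16 in WT mice 1, 3 and 4, and -0.35, -0.16 and -0.14 in Aim2-/- mice 1, 2 and 4. The difference between the changes was -0.60 (SE 0.18), with an unadjusted p of 0.0033 in edgeR's quasi-likelihood test and an adjusted p of 0.947 over all genes, and -0.63 (adjusted p = 0.503) without the mouse labelled WT 1. Myeloid markers summed to 113 to 351 CPM in Aim2-/- and 33.9 to 54.9 CPM in WT libraries at 3 h. Over the alternatives other than leaving out a library or mouse, the difference was -0.63 to -0.58 and not called. Marker scores as terms in the fit were among these alternatives. The cause of the difference was not tested.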

How the results depend on the processing

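Of 53 called values of the members, 40 kept their direction and call under every alternative run for them (39 or 40 each), 13 lost the call under at least 1, and none reversed. Among stimulation values 26 of 32 were kept. Of 25 values followed that had not been called, 18 were called under at least 1 alternative (12 to 40 run for each). Leaving out a library or a mouse moved the number of members called to 3 to 6 for WT 3 h against 0 h, 1 to 2 for WT 6 h against 3 h, and, for the genotype difference, 0 to 2 at 0 h, 0 to 1 at 3 h, 1 to 6 at 6 h, 0 to 3 at 24 h and 0 to 2 with libraries summed per mouse. In fits of only the libraries compared, 1 member was called for WT 6 h against 3 h and 2 for the genotype difference at 6 h. Marker scores as terms left 1 at 6 h and called 1 for the difference in response at 6 h. DESeq2 called 1 at 3 h, 2 for the response at 6 h and 2 with libraries summed. With no filter on low counts, 2 were called at 3 h and 1 for the response at 6 h. The mouse as a replicate block called 2 for the response at 6 h; beyond the values it called in the report it changed no other call of the members. Mouse numbers are only shared between genotypes (same-numbered libraries correlated at -0.165 to 0.3 over 32 pairs), and with that number as a replicate block the genotype counts were 3, 2, 6 and 3 at 0, 3, 6 and 24 h, and 2 for the response at 6 h. The shares of all genes under these alternatives are not given beside the counts here. The cause of these moves was not tested.

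The WT change of Zc3h12d at 24 h, which is near 0, turned sign to 0.0066 in limma-voom and 0.002 with the mouse as a replicate block, was -0.42 (adjusted p = 0.186) with marker scores as terms, and ranged from -0.17 to 0.11 when a library or mouse was left out. That of Zfp36l1 at 6 h in Aim2-/- cells, also not called, was 0.0603 with library totals only. Shares moved with the length used. By the longest transcript, Zfp36l2 made up 31.2% of its family in WT cells at 24 h, Zc3h12a 51.8% in Aim2-/- cells at 0 h, and Rc3h1 59.3 and 67% in WT and 59.1 and 61.7% in Aim2-/- cells at 0 and 24 h. With no division by length, Zfp36l2 made up 35.3% (WT, 24 h) and 44.4% (Aim2-/-, 0 h), Zc3h12a 42 and 18.5% (WT) and 42 and 19.4% (Aim2-/-), and Rc3h1 64.2 and 71.4% (WT) and 64 and 66.4% (Aim2-/-) at 0 and 24 h. With 3 mice per group, of which 1 WT mouse goes against its label, small genotype differences were not detectable at this size.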
